A study of Homo sapiens with 12 samples.

Results

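The AP-1 family is represented here by 9 genes, taken by name from a set of 11963 measured genes: FOS, FOSB, FOSL1, FOSL2, JUN, JUNB, JUND, BATF and MAFF. Their transcripts were measured in MDA-MB231 cells, an established human line of mesenchymal-like breast cancer, 24 h after the vehicle DMSO or 1 of 3 compounds was added. Each of the 4 groups had 3 arrays. The compounds were rotenone, which inhibits respiratory complex I, digoxin, which inhibits the Na,K-ATPase, and the plant lignan manassantin. The sample titles say digoxin and the study's design text digitoxin, a related glycoside, and the titles' name is used below. The design text gives manassantin as manassantin A. All groups, the vehicle included, grew in DMEM with serum and antibiotics. The sources used here give neither doses nor the oxygen level. No label ties the 3 arrays of a group to independent cultures, and the p-values below therefore weigh differences against a spread between arrays that may be only technical.

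The 9 genes did not move as a block. Digoxin raised MAFF 4.53-fold, FOSL2 3.62-fold, JUNB 2.21-fold and JUN 1.34-fold. It took FOS from a dim log2 level of 4.26 to 6.24, and raised FOSB by 0.45 on the log2 scale at dim levels. Digoxin lowered JUND to 0.721 of its DMSO level on its brightest probe set. Rotenone raised JUNB 1.79-fold, FOSL2 1.55-fold, MAFF 1.40-fold and FOSL1 1.28-fold, and FOS and FOSB rose with it by 0.84 and 0.88 on the log2 scale at dim levels. Manassantin moved only FOSL2 (1.23-fold) and MAFF (1.28-fold) past the threshold in the fit on all arrays, and both calls were lost in several alternatives.

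AP-1 is a dimer of basic leucine zipper proteins. A zipper of the FOS class (FOS, FOSB, FOSL1, FOSL2) pairs with one of the JUN class (JUN, JUNB, JUND), JUN proteins also pair with each other, and the dimer binds the TPA response element or the related cyclic AMP response element. FOS, FOSB and JUNB are among the immediate early genes. Transcription of such genes starts within minutes of a stimulus from existing factors such as SRF with its ELK partners and CREB. Their transcripts decay quickly. JUND is transcribed in resting cells too, and FOSL1 protein is known for its abundance in mesenchymal breast cancer cells. BATF pairs with JUN proteins and lacks a transactivation domain. MAFF is a small MAF protein, which binds a longer element that contains the AP-1 core and partners the NFE2L2 family.

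The promoters are shown because 5 of these genes (FOS, FOSB, FOSL2, JUNB and MAFF) rose with both rotenone and digoxin, and JUN and JUND serve for contrast. Each run is the 140 bases before the RefSeq start site (GRCh38.p14, 5′ to 3′ on the gene's strand), with matches to the motifs below in capitals (a match on the opposite strand reads CGTCA).
FOS (chr14:75278688-75278827, plus strand): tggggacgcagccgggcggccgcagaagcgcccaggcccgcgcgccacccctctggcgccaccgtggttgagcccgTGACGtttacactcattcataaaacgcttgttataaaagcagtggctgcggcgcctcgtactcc
FOSB (chr19:45467856-45467995, plus strand): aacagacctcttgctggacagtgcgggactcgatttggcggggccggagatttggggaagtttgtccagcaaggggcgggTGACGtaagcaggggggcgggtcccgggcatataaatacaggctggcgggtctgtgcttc
FOSL2 (chr2:28392718-28392857, plus strand): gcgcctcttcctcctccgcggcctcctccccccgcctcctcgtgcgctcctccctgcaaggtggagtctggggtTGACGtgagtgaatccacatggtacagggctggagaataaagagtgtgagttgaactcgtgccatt
JUNB (chr19:12791346-12791485, plus strand): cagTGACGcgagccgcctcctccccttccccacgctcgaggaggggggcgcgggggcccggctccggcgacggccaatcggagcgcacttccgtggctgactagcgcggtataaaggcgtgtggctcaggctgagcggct
MAFF (chr22:38201854-38201993, plus strand): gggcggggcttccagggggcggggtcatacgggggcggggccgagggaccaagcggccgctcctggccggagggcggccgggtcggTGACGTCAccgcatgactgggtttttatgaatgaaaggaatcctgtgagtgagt
JUN (chr1:58784048-58784187, minus strand): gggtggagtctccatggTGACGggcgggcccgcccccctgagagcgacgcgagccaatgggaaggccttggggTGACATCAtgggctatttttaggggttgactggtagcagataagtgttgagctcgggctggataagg
JUND (chr19:18281623-18281762, minus strand): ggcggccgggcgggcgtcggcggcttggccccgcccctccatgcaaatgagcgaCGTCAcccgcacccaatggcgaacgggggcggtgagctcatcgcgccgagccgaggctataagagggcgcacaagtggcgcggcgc
The motifs were searched on both strands over a window from 250 bases before to 50 after the start, which RefSeq gave for 8 of the 9 genes, with a pair of start sites for MAFF, of which the first is shown. Sequence for FOSL1 was not analysed here. The motifs were TGACG, the first bases of the cyclic AMP response element, and the full element TGACGTCA, which contains TGACG. TGACATCA, the variant carried by JUN, was the next. The last was TGANTCA, the TPA response element with any base allowed at its centre. This is a wider pattern than the element itself, and its share of windows is that of the wider pattern.
TGACG lay in a window of 7 of the 8 genes searched (all but BATF), and in 24.6% of 35116 promoter windows. The units differ, as a gene was counted for a match in any of its windows. MAFF, with a pair of windows, had its matches in the first. Counted from the start site, TGACG lay at -64 to -60 in FOS and at -60 to -56 in FOSB. It lay at -66 to -62 in FOSL2 and at -54 to -50 in MAFF. In JUNB, which also rose, it lay at -137 to -133, and FOSL2 had a further match at -201 to -197. The contrast genes carried it too, JUN at -123 to -119 and JUND at -200 to -196 and -86 to -82. Its presence therefore did not separate the genes that rose with both compounds from the contrast genes. Of these, JUN rose with digoxin but was not called with rotenone, and JUND rose with neither. The full element was found in MAFF (-54 to -47) and JUND (-200 to -193, upstream of the run shown), and in 1.85% of all windows. TGACATCA was found in JUN at -67 to -60 (2.61% of windows). TGANTCA was found in FOSL2, as TGACTCA, at 5 to 11, just after the start (7.71% of windows). A match describes the letters only and names no bound factor.

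All values below are log2 expression on Affymetrix arrays, from the brightest probe set of each gene unless another is named. No transcript count stands behind them. Levels of different genes were therefore set side by side only as a rough guide, for the dim threshold and the markers below. The line's markers VIM, CD44, EGFR, MSN and CAV1 were all above the dim threshold (a log2 mean under 5.75, the 40th percentile of genes), and CDH1, PGR and the markers of other cell types PTPRC, PECAM1, ALB and GFAP were all under it. ESR1, ERBB2 and EPCAM were above it, at means of 6.19, 7.92 and 7.87. FOS (mean 4.90) and FOSB (mean 4.94) were the dim members of the family. With DMSO both were no higher than PECAM1 and GFAP, which lay between 4.45 and 5.22 over the arrays. The values do not show whether such levels stood above background, so differences of FOS and FOSB are those of the measured signal, and no linear fold or rank is given for them. In bulk RNA, fewer expressing cells and less RNA per cell cannot be told apart. The 18S rRNA control averaged 10.40 ± 0.315 (SD, n = 3) with DMSO, 10.01 ± 0.152 with rotenone, 10.08 ± 0.163 with digoxin and 9.83 ± 0.481 with manassantin. The difference of the manassantin group from DMSO was -0.57 (exact permutation p = 0.3, two-sided, where 3 against 3 arrays cannot go below 0.1), and in the fit with this control as a covariate no member was called for manassantin against DMSO. The dap spike-in control, as its 3′ minus 5′ log2 signal, averaged 2.67 ± 0.358 with DMSO, 2.85 ± 0.192 with rotenone, 2.96 ± 0.167 with digoxin and 3.22 ± 0.510 with manassantin. Its manassantin difference from DMSO was 0.55 (exact permutation p = 0.2, two-sided), and its part in the results was not tested.

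**Figure D1:**
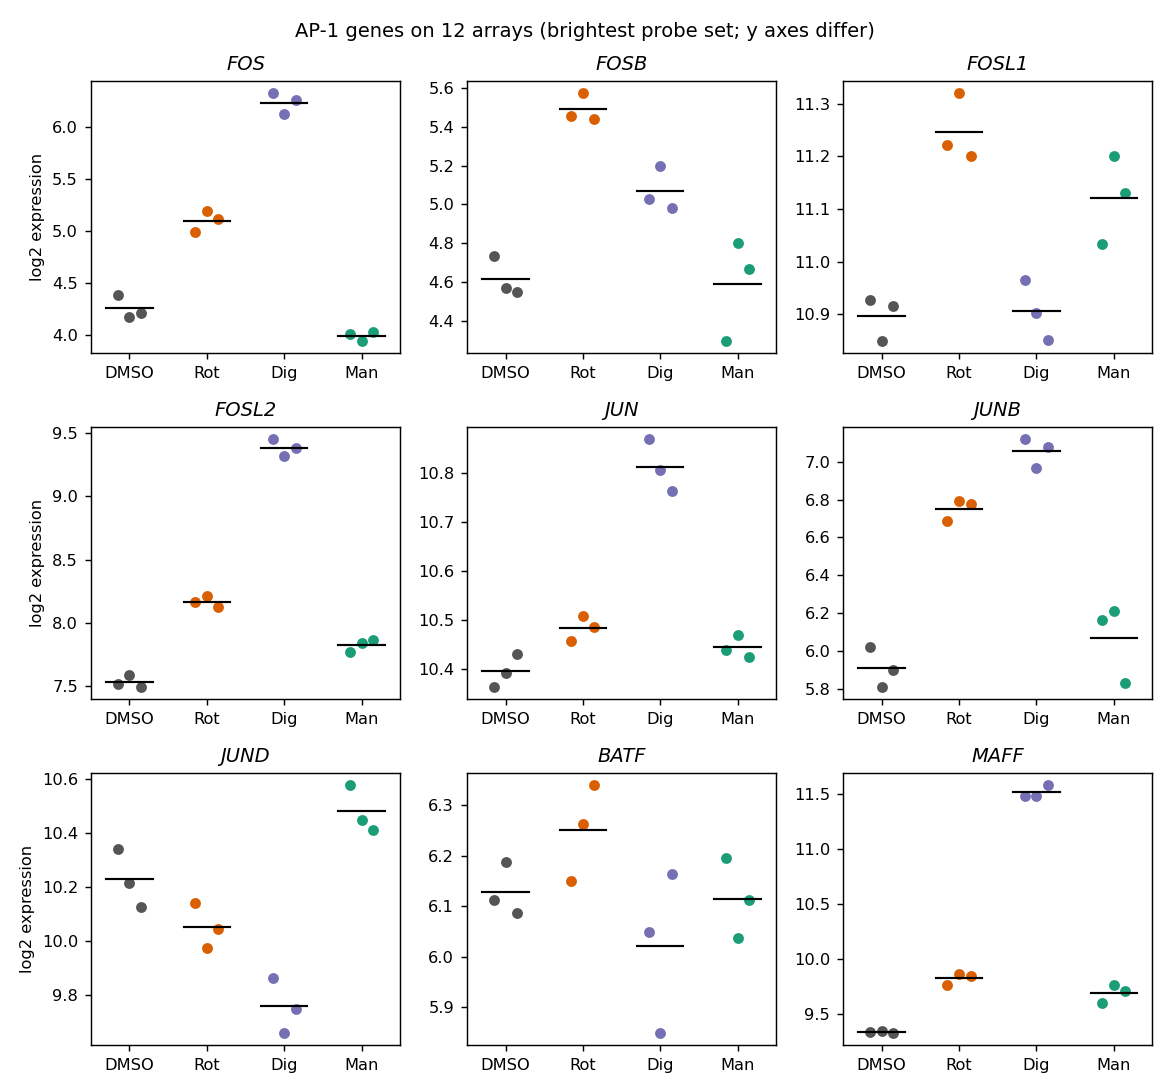
Log2 expression (y axis, scaled separately in each panel) of the 9 AP-1 genes on each of the 12 arrays, by group (DMSO, Rot for rotenone, Dig for digoxin, Man for manassantin); points are arrays and bars are group means. FOS, FOSL2, JUN, JUNB and MAFF are highest with digoxin and FOSB with rotenone, while the top pair of groups in FOSL1 (rotenone and manassantin) and in JUND (manassantin and DMSO) did not differ by the test.

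Among the FOS class, FOS, the archetypal immediate early gene, had the widest span. Its 3 DMSO arrays read 4.39, 4.18 and 4.22, the rotenone arrays 4.99, 5.19 and 5.12, the digoxin arrays 6.33, 6.12 and 6.26, and the manassantin arrays 4.01, 3.95 and 4.04. No group overlapped another. Against DMSO the log2 fold change was 1.97 ± 0.074 (SE, n = 3 arrays per group) with digoxin (adjusted p = 1.13e-09) and 0.84 ± 0.074 with rotenone (adjusted p = 9.21e-05). With manassantin it was -0.27 ± 0.074, all 3 arrays below the lowest DMSO array, but this did not pass (adjusted p = 0.107, 95% interval -0.43 to -0.10, and 0.0909 to 0.561 over the alternatives tried).

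FOSB, a close relative of FOS and also an immediate early gene, had a different order. It read 4.73, 4.57 and 4.55 with DMSO, 5.46, 5.57 and 5.44 with rotenone, 5.03, 5.20 and 4.98 with digoxin, and 4.29, 4.80 and 4.67 with manassantin. The rotenone arrays lay above all others and the digoxin arrays between them and the overlapping DMSO and manassantin arrays. The rise was 0.88 ± 0.11 with rotenone (adjusted p = 0.000829) and 0.45 ± 0.11 with digoxin (adjusted p = 0.00458), and manassantin stood at -0.03 ± 0.11 (adjusted p = 0.934).

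FOSL1, which encodes FRA-1, moved with rotenone and not detectably with digoxin. Its arrays read 10.93, 10.85 and 10.91 with DMSO, 11.22, 11.32 and 11.20 with rotenone, 10.96, 10.90 and 10.85 with digoxin, and 11.03, 11.20 and 11.13 with manassantin. Digoxin and DMSO overlapped, and both lay below the other groups. The rotenone rise was 0.35 ± 0.057 (adjusted p = 0.00409). Manassantin stood at 0.22 ± 0.057 and missed the threshold (adjusted p = 0.0818, and 0.00559 to 0.373 over the alternatives). Digoxin stood at 0.01 ± 0.057 (adjusted p = 0.898, 95% interval -0.12 to 0.13), and its value depended on the scale: centring each array on its median, which adds 0.19 to every digoxin against DMSO difference, made it 0.20 (adjusted p = 0.0107).

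FOSL2, which encodes FRA-2, was the FOS class gene that passed with every compound. It read 7.51, 7.58 and 7.49 with DMSO, 8.16, 8.21 and 8.12 with rotenone, 9.45, 9.32 and 9.38 with digoxin, and 7.77, 7.84 and 7.87 with manassantin. The 4 groups formed separate steps. The differences from DMSO were 1.86 ± 0.052 with digoxin (adjusted p = 1.75e-10), 0.64 ± 0.052 with rotenone (adjusted p = 6.41e-05) and 0.30 ± 0.052 with manassantin (adjusted p = 0.0263). Its 2 other probe sets rose by 1.37 and 1.02 with digoxin and by 0.45 and 0.35 with rotenone. With manassantin they stood at 0.10 (adjusted p = 0.669) and 0.02 (adjusted p = 0.944), so that rise rested on the brightest probe set. It also lost the threshold without any 1 of the 6 arrays, with adjusted p from 0.057 (without manassantin replicate 1) to 0.134 (without DMSO replicate 3).

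In the JUN class, JUN itself, the partner that gives AP-1 most of its activation, passed against DMSO with digoxin only. It read 10.36, 10.39 and 10.43 with DMSO, 10.46, 10.51 and 10.49 with rotenone, 10.87, 10.81 and 10.76 with digoxin, and 10.44, 10.47 and 10.42 with manassantin. The digoxin arrays stood above the rest. JUN rose by 0.42 ± 0.045 with digoxin (adjusted p = 6.5e-06), and its 3 other probe sets rose by 0.29, 0.62 and 0.30 (adjusted p = 0.0158, 4.15e-05 and 0.00691). The rotenone arrays all exceeded the DMSO arrays, but the difference of 0.09 ± 0.045 did not pass (adjusted p = 0.287), and 2 of the other probe sets had the opposite sign. Manassantin stood at 0.05 ± 0.045 (adjusted p = 0.648, 95% interval -0.05 to 0.15). The brightest JUN probe set carries the suffix _x_at, which Affymetrix gives to sets with probes that may bind other transcripts.

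JUNB, an immediate early gene whose protein activates less strongly than JUN, passed with rotenone and digoxin. Its arrays read 6.02, 5.81 and 5.90 with DMSO, 6.68, 6.79 and 6.77 with rotenone, 7.12, 6.97 and 7.08 with digoxin, and 6.16, 6.21 and 5.83 with manassantin. The manassantin arrays overlapped DMSO, and the rotenone and digoxin arrays stood clear of both. JUNB rose by 1.14 ± 0.093 with digoxin (adjusted p = 5.85e-07) and by 0.84 ± 0.093 with rotenone (adjusted p = 0.000357). Manassantin stood at 0.16 ± 0.093 (adjusted p = 0.444, 95% interval -0.05 to 0.36).

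JUND, the JUN class gene known for steady transcription, was the member that fell with digoxin. It read 10.34, 10.22 and 10.12 with DMSO, 10.14, 9.97 and 10.04 with rotenone, 9.86, 9.66 and 9.75 with digoxin, and 10.58, 10.45 and 10.41 with manassantin. The digoxin arrays were the lowest and the manassantin arrays the highest, with rotenone and DMSO overlapping between them. JUND fell by 0.47 with digoxin (SE 0.075, adjusted p = 0.000181), and by 0.29 with median centring (adjusted p = 0.00321). Rotenone stood at -0.18 ± 0.075 (adjusted p = 0.203, and 0.0465 with replicate number as a block) and manassantin at 0.25 ± 0.075 (adjusted p = 0.128, and 0.032 with that block). The other JUND probe sets were dim: with digoxin one fell by 0.35 (adjusted p = 0.0498) and one stood at -0.13 (adjusted p = 0.382), and with manassantin both were just below 0.

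MAFF had the largest change from DMSO in the family, with digoxin. It read 9.34, 9.34 and 9.33 with DMSO, 9.76, 9.87 and 9.84 with rotenone, 11.48, 11.48 and 11.58 with digoxin, and 9.60, 9.77 and 9.71 with manassantin. Rotenone and manassantin overlapped, both above DMSO, and digoxin lay far above all. The rise was 2.18 ± 0.054 with digoxin (adjusted p = 1.14e-10), 0.49 ± 0.054 with rotenone (adjusted p = 0.000357) and 0.36 ± 0.054 with manassantin (adjusted p = 0.0178). MAFF ranked 14 from the top of all genes with digoxin and 57 with each of the other compounds. Its other probe set rose by 2.24 with digoxin and 0.38 with rotenone and stood at 0.27 with manassantin (adjusted p = 0.128). The manassantin call was kept without manassantin replicate 1 and lost without any of the other 5 arrays, with adjusted p from 0.0524 (without DMSO replicate 1, log2 fold change 0.36) to 0.0994 (without DMSO replicate 3).

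BATF, best known from lymphocytes, did not pass against DMSO with any compound. Its arrays lay between 5.85 and 6.34, with group means of 6.13 for DMSO, 6.25 for rotenone, 6.02 for digoxin and 6.12 for manassantin. All groups overlapped. Its differences from DMSO were 0.12 ± 0.080 with rotenone (adjusted p = 0.433), -0.11 ± 0.080 with digoxin (adjusted p = 0.271) and -0.01 ± 0.080 with manassantin (adjusted p = 0.956).

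**Figure D2:**
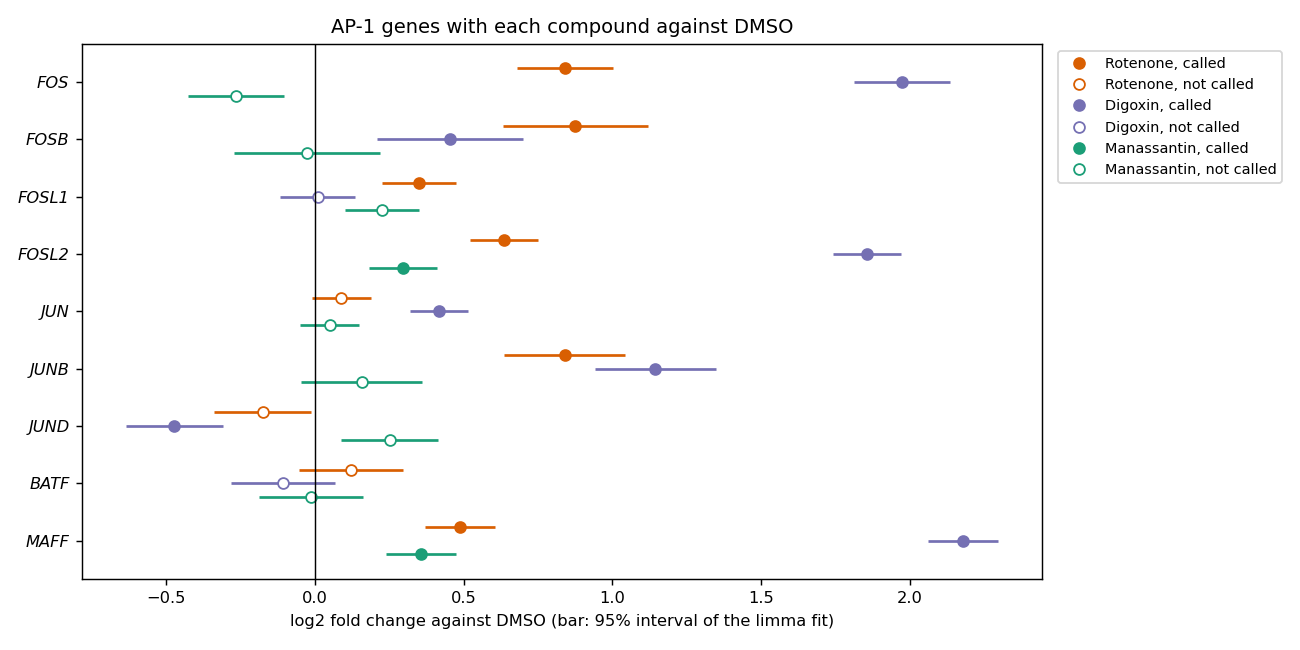
Log2 fold change against DMSO (x axis) of the 9 AP-1 genes with rotenone, digoxin and manassantin; bars are 95% intervals of the limma fit, and filled points passed an adjusted p of 0.05. MAFF, FOS and FOSL2 with digoxin lie near 2, JUND with digoxin lies below 0, and the manassantin points lie between -0.27 and 0.36.

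Counted by compound, digoxin changed 7 of the 9 genes, 6 higher and 1 lower, where 54.8% of all genes were called, 28% higher and 26.9% lower. The groups did not overlap for 7 of the 9, against 61.9% of all genes, and the median log2 fold change was 0.45 for the family and 0.07 for all genes. Rotenone raised 6 of the 9 and lowered 0, where 6.94% of all genes were called, 3.55% higher and 3.39% lower. Its groups did not overlap for 7 of the 9, against 31.2% of all genes, and the medians were 0.49 and 0.01. Manassantin raised 2 and lowered 0, where 0.97% of all genes were called, 0.853% higher and 0.117% lower. Its groups did not overlap for 5 of the 9, against 22.4% of all genes, and the medians were 0.16 and 0.01. The manassantin count was 0 to 1 with 1 array left out (1 without manassantin replicate 1), and 0 with the 18S control as a covariate (FOSL2 adjusted p = 0.252, MAFF adjusted p = 0.248), where the rotenone and digoxin counts were 6 and 7. With median centring the split over all genes became 6952 higher and 2158 lower for digoxin, from 3347 and 3214, and 47 and 24 for manassantin, from 102 and 14. The 3 comparisons share the DMSO arrays, so their values are given side by side and are not independent of each other.

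In the order of group levels, FOSL2 ran digoxin, rotenone, manassantin, DMSO, and every neighbouring pair differed. In FOS, FOSB and JUNB the lowest pair, DMSO and manassantin, did not pass. In MAFF rotenone and manassantin did not pass, and in JUN neither rotenone and manassantin nor manassantin and DMSO did. FOSL1 had rotenone and manassantin on top and digoxin and DMSO below, without a called difference inside either pair. JUND ran manassantin, DMSO, rotenone, digoxin, and only rotenone and digoxin differed among the neighbours. No neighbouring pair of BATF passed.

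**Figure D3:**
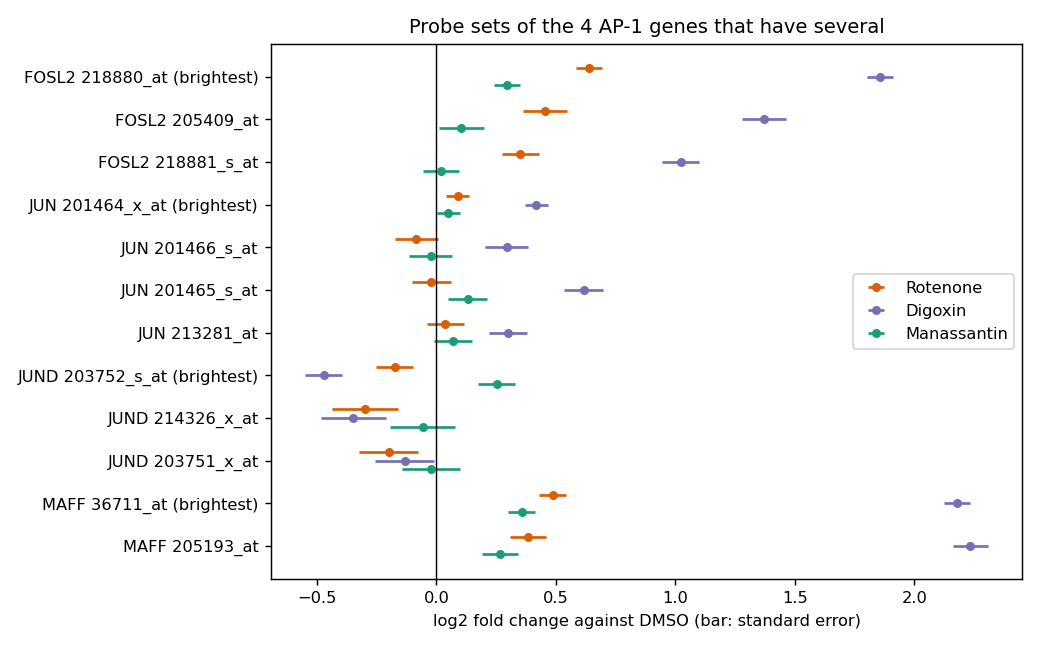
Log2 fold change against DMSO (x axis, bars are standard errors) for every probe set of FOSL2, JUN, JUND and MAFF with each compound, from a fit over all named probe sets. All 3 FOSL2 probe sets, all 4 JUN probe sets and both MAFF probe sets lie above 0 with digoxin, and the JUND probe sets lie below it.

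The compounds were next compared with each other. Rotenone against digoxin called all 9 genes, 4 higher with rotenone and 5 lower, where 50.5% of all genes were called, 26.3% higher and 24.2% lower. The arrays did not overlap for 8 of the 9, against 58.1% of all genes. FOSL1 was higher with rotenone by 0.34 ± 0.057 (adjusted p = 0.000298), FOSB by 0.42 ± 0.11 (adjusted p = 0.00745), JUND by 0.30 ± 0.075 (adjusted p = 0.00548) and BATF by 0.23 ± 0.080 (adjusted p = 0.0308). With median centring, which shifts each of these differences by -0.18 and the split over all genes from 3147 higher and 2892 lower to 2095 and 6534, FOSL1 was still called at 0.16 (adjusted p = 0.0274) and FOSB (adjusted p = 0.0763), JUND (adjusted p = 0.141) and BATF (adjusted p = 0.544) were not. The mean of the JUND probe sets did not pass either, at 0.09 (adjusted p = 0.437). BATF was also lost without rotenone replicate 2 (adjusted p = 0.072), rotenone replicate 3 (adjusted p = 0.116) or digoxin replicate 2 (adjusted p = 0.126), with quantile normalization (0.14, adjusted p = 0.185) and with only the groups compared (adjusted p = 0.0676).

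On the other side, MAFF stood at -1.69 ± 0.054 for rotenone against digoxin (adjusted p = 6.5e-10), FOSL2 stood at -1.22 ± 0.052, FOS at -1.13 ± 0.074 and JUN at -0.33 ± 0.045. JUNB was the member with the smallest gap among these, at -0.30 ± 0.093 (adjusted p = 0.0164), and it lost the threshold without rotenone replicate 1 (adjusted p = 0.0594) or digoxin replicate 1 (adjusted p = 0.0558). With median centring JUN stood at -0.51 and JUNB at -0.48.

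Manassantin against rotenone called 5 of 9 genes, with 4 lower and 1 higher, where 8.47% of all genes were called, 3.78% lower and 4.69% higher. The arrays did not overlap for 5 of the 9, against 29.2% of all genes. With median centring the split over all genes moved from 561 higher and 452 lower to 349 and 665, and the family's count was 5 there too. FOS stood at -1.11 ± 0.074 (adjusted p = 1.36e-05), with both groups at dim levels. FOSB stood at -0.90 ± 0.11, JUNB at -0.68 ± 0.093 and FOSL2 at -0.34 ± 0.052 (adjusted p = 0.00252). JUND was higher with manassantin by 0.43 ± 0.075 (adjusted p = 0.00584), although the mean of its probe sets did not pass (0.28, adjusted p = 0.101). MAFF differed by -0.13 ± 0.054 (adjusted p = 0.167, 95% interval -0.25 to -0.01) and FOSL1 by -0.13 ± 0.057 (adjusted p = 0.21, 95% interval -0.25 to -0.0009). JUN and BATF did not pass.

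Manassantin against digoxin called 8 of 9 genes, where 56.7% of all genes were called, 28.6% lower and 28.1% higher, a split that median centring moved from 3418 lower and 3363 higher to 7237 and 2176. The arrays did not overlap for 8 of the 9, against 59.7% of all genes. The 6 lower ones were FOS at -2.24 ± 0.074, MAFF at -1.82 ± 0.054, FOSL2 at -1.56 ± 0.052, JUNB at -0.99 ± 0.093, FOSB at -0.48 ± 0.11 and JUN at -0.37 ± 0.045 (-0.59 with median centring). JUND was higher by 0.72 ± 0.075 (adjusted p = 4.59e-06) and by 0.37 as the mean of its probe sets (adjusted p = 0.00556), and the other 2 alone stood at 0.29 (adjusted p = 0.0928) and 0.11 (adjusted p = 0.467). FOSL1 was higher by 0.22 ± 0.057 (adjusted p = 0.0069), but stood at -0.0016 (adjusted p = 0.981) with median centring.

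The other genes of the pathway were taken from 4 lists, written with earlier results of these data known. The shares over all genes beside their counts are therefore a description and not a test. Among 18 measured kinases and factors upstream of AP-1, digoxin raised 6 and lowered 4, where 28% of all genes were called higher and 26.9% lower, a share of calls near that background. MEF2D, which acts on the JUN promoter, rose by 1.19 and SRF, the factor of the serum response element, by 0.78, while the stress kinase gene MAP3K5 fell by 0.92 and ELK3, an SRF partner, by 0.57. Rotenone lowered 1, MAPK9, a JUN kinase gene (-0.20, adjusted p = 0.0207), and manassantin called 0 of 18, where 6.94% and 0.97% of all genes were called. The medians of the list were 0.09, -0.02 and 0.01 with digoxin, rotenone and manassantin, beside 0.07, 0.01 and 0.01 over all genes.

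Of 17 other basic leucine zipper genes, digoxin raised 7 and lowered 6, where 28% of all genes were called higher and 26.9% lower. CEBPD, a factor of acute inflammation, rose by 2.07 ± 0.068, from 8.38 to 10.45, ATF3, a stress-induced partner of JUN proteins, by 1.63 ± 0.070, and MAFG, a small MAF like MAFF, by 0.82 ± 0.052. BACH2, a repressor that pairs with small MAF proteins, fell by 0.80 and is dim. Rotenone raised ATF3 by 0.78 and left BACH2 lower (-0.58, adjusted p = 0.00117), and the other 15 were not called. CEBPD and MAFG stood at 0.07 and 0.11 with rotenone (adjusted p = 0.651 and 0.238), and both differed between rotenone and digoxin, by -2.00 and -0.71. Manassantin called 0 of 17, with a median of 0.03 beside 0.01 over all genes.

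Of 24 measured textbook targets of AP-1, digoxin raised 12 and lowered 4, rotenone raised 8 and lowered 0, and manassantin raised 2 and lowered 0. Over all genes the shares called higher and lower were 28% and 26.9% with digoxin, 3.55% and 3.39% with rotenone, and 0.853% and 0.117% with manassantin. The medians were 0.21, 0.16 and 0.16, beside 0.07, 0.01 and 0.01 over all genes. As this list was written with earlier results known, its excess over these shares was not tested. The digoxin rises were led by the cytokine genes CXCL8 (mean 7.48 with DMSO and 11.16 with digoxin), IL11 (8.01 and 11.22), IL6 (6.11 and 9.31) and IL24 (4.53 and 7.66). The 4 called lower, named after their values were seen, were PLAU, urokinase, at -0.99, CD44, the hyaluronan receptor gene, at -0.57, the cyclin gene CCND1 at -0.22 and the growth factor gene VEGFA at -0.175 (adjusted p = 0.0479). The falls of CCND1 and VEGFA are about the size of the 0.19 that median centring adds to every digoxin against DMSO difference. Rotenone was led by IL24 (1.50), MMP1 (1.03), DUSP1, a phosphatase of MAP kinases (0.87), and IL6 (0.85). The 2 genes raised by manassantin were the collagenase gene MMP1 (0.78 ± 0.12, adjusted p = 0.0178) and PLAUR, the urokinase receptor gene (0.24 ± 0.050, adjusted p = 0.0483). Whether these calls held in the alternatives was not recorded. Over all genes the 116 manassantin calls became 7 to 25 without 1 array and 3 to 503 in the other settings.

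MMP1 was not called between rotenone and digoxin, at -0.19 ± 0.12 (adjusted p = 0.205), where CXCL8 stood at -2.99, IL11 at -2.86 and IL6 at -2.36. Between manassantin and rotenone MMP1 stood at -0.25 ± 0.12 (adjusted p = 0.244). The 4 targets called lower with manassantin there were IL24 at -0.99, IL6 at -0.69, DUSP1 at -0.59 and CXCL8 at -0.48. The 1 called higher was MMP13, a dim gene, by 0.22 (adjusted p = 0.0221). Over all genes 3.78% were called lower and 4.69% higher.

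**Figure D4:**
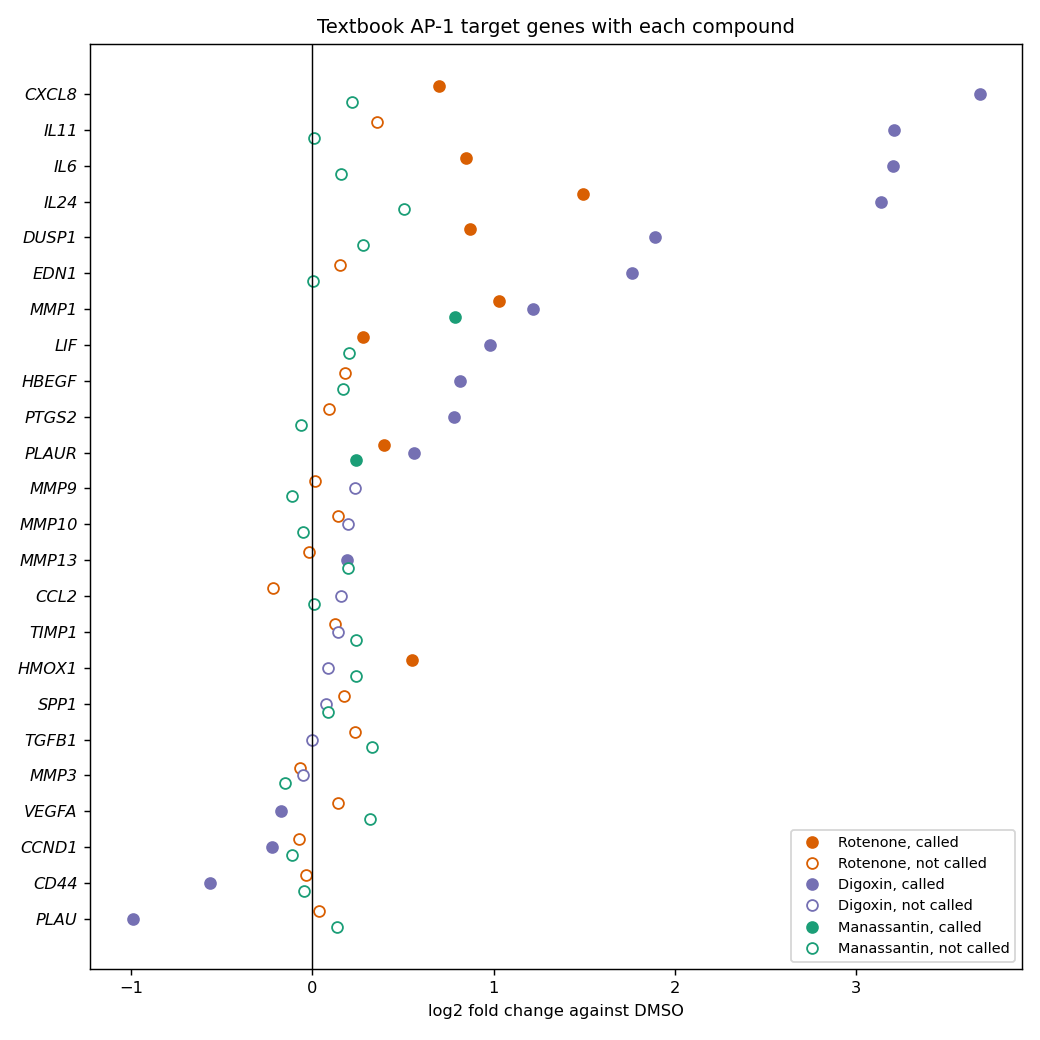
Log2 fold change against DMSO (x axis) of 24 textbook AP-1 target genes with each compound; filled points passed an adjusted p of 0.05. CXCL8, IL11, IL6 and IL24 lie above 3 with digoxin, and MMP1 and PLAUR are the genes called with all 3 compounds in the fit on all arrays.

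Of 9 measured genes for the turnover of AP-1 proteins, digoxin raised 3 and lowered 5, where 28% of all genes were called higher and 26.9% lower. The list's median was -0.18 with digoxin and 0.01 with rotenone, beside 0.07 and 0.01 over all genes. DET1, which encodes a part of a ubiquitin ligase for JUN, fell by 2.40 ± 0.093, from 6.86 to 4.45. CUL1, a ligase scaffold gene, fell by 0.56. ITCH, a ligase gene for JUN and JUNB, rose by 1.41 ± 0.054 and GSK3B, a kinase that marks JUN for removal, by 1.39 ± 0.053. Rotenone raised ITCH by 0.25 and GSK3B by 0.24 (adjusted p = 0.0165 and 0.0206), and manassantin called 0 of 9, with a median of -0.07 beside 0.01 over all genes.

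Likeness was taken as Pearson's r of the values over the 12 arrays, which share group and array effects, and digoxin's large changes weigh most in it. MAFF was most like PPP1R15A (r = 0.996), RUSC2 and PEA15 (0.995 each). FOSL2 was most like TMEM127 (0.993) and TNFAIP3 (0.992), FOS like MRPS30 and ODC1 (0.988 each), JUN like TFAP2C (0.986), JUNB like ABCF1 (0.984) and CXCL3 (0.978), JUND like BST2 (0.989), FOSL1 like FTL (0.942) and FOSB like SUPT5H (0.939). Over the 9 arrays without digoxin the nearest genes were others for most members: H2BC21 and AURKA for FOS (0.987 and 0.986), CYP1A1, RAB32 and MMP1 for MAFF (0.987, 0.987 and 0.986), IL6 for JUNB (0.983), OSER1 for FOSL2 (0.99), METTL13 for FOSB (0.987), GPN2 and VEGFC for FOSL1 (0.978 each), C11orf24 for JUN (0.985) and MLPH for JUND (0.992). SUPT5H stayed among the nearest genes of FOSB there (0.984), BST2 of JUND (0.981) and ABCF1 of JUNB (0.974). JUN had no called difference between the groups left without digoxin. Within the family over 12 arrays, r was 0.989 for FOSL2 with MAFF, 0.947 for FOS with FOSL2, -0.92 for FOS with JUND and -0.207 for FOS with FOSL1.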

How the data were processed

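Expression was measured on 12 Affymetrix arrays in 4 groups of 3, with groups and replicate numbers from the sample titles. Per the labels, column-purified RNA was amplified and biotin-labelled before hybridization. Values as deposited are log2 probe set summaries made by the authors; the log2 scale was inferred from their range (1.65 to 13.75), with summarisation and normalization not given in the sources used here. Platform annotation gave 1 symbol to 19064 of 22277 probe sets; the brightest probe set stood for each of 11963 genes, and all 17 of the 9 members were also tested. The number of arrays limits the precision.

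limma 3.58.1 (R 4.3.3; lmFit, eBayes) was fitted on all arrays with a group term alone and 8 residual degrees of freedom. A gene was called at a Benjamini-Hochberg adjusted p under 0.05 within a comparison, over all genes. The fit was tested on simulated data. Members, lists, alternatives and the naming rule (members, up to 4 leading called genes per list and compound, and the 3 nearest genes by correlation) were chosen with earlier results of these data known. Same-numbered manassantin and rotenone arrays deviated together across genes (r = 0.107 to 0.362), which met the pairing criterion, although no label explains the number. Figures used Python 3.11.15 and matplotlib 3.10.9.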

Additional observations from a re-analysis of the deposited data

How the results depend on the processing

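The counts of AP-1 genes called stayed within 1.5 times their value in the alternatives run, except manassantin against DMSO and, with dim genes left out, manassantin against rotenone (3, from 5), where FOS and FOSB are not tested. Rotenone against digoxin was lowest with median centring (6, from 9). With 1 array left out the counts were 6 and 7 for rotenone and digoxin against DMSO, 5 and 8 for manassantin against rotenone and digoxin, and 8 to 9 for rotenone against digoxin. The manassantin against DMSO count of 2 was 1 with median centring or the mean of probe sets, 4 with a trended robust prior, 0 with the 18S covariate or only the groups compared, and 0 to 1 without 1 array.

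Over all genes, manassantin against DMSO called 116. It called 71 with median centring, 491 when dim genes were dropped, 291 with the replicate block, 503 with the trended prior, 3 with the 18S covariate, 4 with only the groups compared and 7 to 25 without 1 array. Rotenone against DMSO called 830, and 1301 when dim genes were dropped, 1312 with the trended prior, 339 with the 18S covariate and 346 to 500 without 1 array. Manassantin against rotenone called 1013, and 1540 when dim genes were dropped, 1545 with the trended prior and 500 to 835 without 1 array. The cause was not tested.

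With the replicate block JUND passed with manassantin and with rotenone against DMSO (3 and 7 genes called), and no other member's call changed. The values that changed sign were of differences not called, except 2. FOSL1 for manassantin against digoxin was -0.0016 with median centring, and JUND for rotenone against digoxin -0.0666 by one of its dim probe sets. Without 1 array, FOSB with manassantin ranged from -0.1349 to 0.1183, BATF with manassantin from -0.0534 to 0.0249 and FOSL1 with digoxin from -0.0201 to 0.0376. Quantile normalization gave -0.0686 for FOSL1 with digoxin and -0.0107 for BATF in manassantin against digoxin. Median centring gave 0.079 for BATF with digoxin and -0.1228 in manassantin against digoxin. Other probe sets of JUN gave -0.0247 with manassantin, -0.0209 and -0.0842 with rotenone, and 0.1525, 0.0595 and 0.0328 in manassantin against rotenone, where their mean gave 0.0513. Those of JUND gave -0.0226 and -0.0585 with manassantin.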
